A study of Homo sapiens with 6 samples.

Results

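Cytosolic ribosomal protein genes encode the proteins of the small and large ribosomal subunits outside the mitochondria. Members were taken by symbol: RPL or RPS with a number and at most 1 final letter A, L or X, or RPLP1, RPLP2, FAU and the like, with pseudogenes left out. Of 82 genes that RefSeq lists under this rule, 61 had a probe set annotated to their symbol alone, and these 61 are described here among 18377 genes on the array. They comprised 23 small-subunit and 38 large-subunit genes. A further 11 were read only by probe sets shared with other symbols, and 10, RPLP0, RPSA and RPL4 among them, were not analysed here. Where a gene had several probe sets, the brightest by its mean over 6 arrays was kept.

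RNA came from MDA-MB-231, an established line of human breast cancer cells that lack hormone receptors and have a mesenchymal character. The group of interest was transfected with the mammalian expression vector pTargeT carrying GHSROS, a long noncoding RNA transcribed on the strand opposite the ghrelin receptor gene GHSR. Its control was transfected with pTargeT alone, so both groups carry the vector, and both grew in serum-supplemented DMEM/F12. Each group had 3 biological replicates, each on 1 Affymetrix Human Gene 1.0 array, and the comparison asks which transcripts differ when this cell line is made to express GHSROS. The labels do not say whether transfection was transient or stable or whether lines were clones, and all values come from a single cell line. No probe set used here is named for GHSROS, so the level of the transfected RNA was not checked.

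Values are log2 expression made by the authors with RMA, and the medians of the arrays lay between 6.559 and 6.648. The mesenchymal markers VIM, CD44, CAV1 and AXL were between 12.35 and 13.37 on every array, while SPARC averaged 6.32 and TGFBI 9.27. ESR1, PGR and CDH1, known to be low in this line, lay between 4.41 and 5.35. The luminal markers GATA3 and FOXA1, listed as low as well, lay between 7.3 and 7.52 and between 6.68 and 7.15. That was above the median of every array, taken over all probe sets. Among the genes used here their means were at percentiles 48 and 42. Of markers of other cells, the leukocyte marker PTPRC lay between 3.55 and 3.68, and ALB and CD3E averaged 3.92 and 5.12. PECAM1, CDH5 and COL1A1, from the same list, averaged 6.1, 7.0 and 7.73. GHSROS array 3 and empty-vector array 1 stood apart from the other arrays, at -29 and -29.6 on the first principal component of all genes, which held 64.4% of the variance, with the other arrays between 4 and 22.2. On these 2 arrays 30 mitosis genes averaged 10.03 and 10.02, against 10.82 to 11.04 on the others, and 26 genes of the ATF4 stress response averaged 10.33 and 10.31, against 9.42 to 9.72. The part of these differences between arrays in the results below was not tested. Values without both are given for the main counts and for some of the named genes.

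Ribosomal proteins assemble with ribosomal RNA in the nucleolus, and the subunits are exported and joined on mRNA in the cytoplasm. The small subunit decodes the message and the large subunit forms peptide bonds and the exit tunnel. Vertebrate ribosomal protein mRNAs open with a cytosine followed by an unbroken run of pyrimidines, the terminal oligopyrimidine (TOP) sequence. Through it the kinase mTOR and the RNA-binding protein LARP1 control their translation together, so their protein output can change with little change in mRNA.

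The TOP sequence is the feature that most of these genes share at their starts, and 10 annotated starts are printed because the results below turn on these genes and their paralogs. Each run covers 20 bases before and 30 bases from the start given by RefSeq (GRCh38.p14), on the strand of the gene, 5′ to 3′. Capitals mark a C followed by at least 4 pyrimidines (C or T) that opens within 5 bases of the start.
RPS19, chr19:41860235-41860284, plus strand: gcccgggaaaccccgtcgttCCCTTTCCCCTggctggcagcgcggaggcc
RPS28, chr19:8321476-8321525, plus strand: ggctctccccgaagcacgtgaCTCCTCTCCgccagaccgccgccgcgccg
RPL28, chr19:55385912-55385961, plus strand: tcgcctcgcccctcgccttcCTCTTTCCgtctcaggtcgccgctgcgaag
RPS24, chr10:78033843-78033892, plus strand: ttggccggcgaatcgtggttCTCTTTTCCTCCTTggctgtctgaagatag
RPS23, chr5:82278325-82278374, minus strand: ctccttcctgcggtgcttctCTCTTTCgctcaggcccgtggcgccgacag
RPL3, chr22:39319594-39319643, minus strand: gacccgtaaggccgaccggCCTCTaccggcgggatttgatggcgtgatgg
RPS27, chr1:153990742-153990791, plus strand: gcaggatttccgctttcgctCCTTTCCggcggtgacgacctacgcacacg
RPS27L, chr15:63157448-63157497, minus strand: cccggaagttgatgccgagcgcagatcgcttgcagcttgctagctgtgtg
RPL10, chrX:154398357-154398406, plus strand: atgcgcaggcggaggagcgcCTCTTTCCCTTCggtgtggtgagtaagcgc
RPL10L, chr14:46651752-46651801, minus strand: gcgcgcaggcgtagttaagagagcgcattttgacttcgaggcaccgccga
The run was 14 bases long in RPS24, 12 in RPL10 and 11 in RPS19. RPL10 has 3 annotated starts and RPS19 has 2, and a start with the run was preferred for printing. In RPS28 it opened 1 base after the annotated start. RPS27L and RPL10L, the copies of RPS27 and RPL10 used as paralogs below, had no such run.

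Start regions were found for 50 of the 61 genes. A gene with several annotated starts was counted if any of them matched, for members and coding genes alike. At an annotated start, read on the transcribed strand only, 37 of the 50 (74%) had the C with its pyrimidine run, against 988 of 15843 protein-coding genes (6.24%). With the run allowed to open within 5 bases, 43 of 50 (86%) had it, against 4442 coding genes (28%). The 7 without it were RPL10L, RPL17, RPL27, RPS15, RPS27L, RPS29 and RPS4X. The core bound by ETS factors, CCGGAAG on either strand and able to overlap a TOP run, was in 19 of 50 (38%) of the 300-base regions, against 2619 coding genes (16.5%). A match describes the letters in the window only, and RefSeq starts need not be the starts used in these cells.

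No ribosomal protein gene passed the test between the vectors, and the measured differences were small. The median log2 fold change, GHSROS over empty vector, was -0.029 over the 61 genes and 0.002 over all 18377, and 55 of the 61 lay within 0.1 of 0 in either direction. In limma 0 of 61 passed an adjusted p of 0.05, as did 0% of all genes, and every member's adjusted p was 1. At an unadjusted limma p under 0.05 there were again 0 of 61, beside 1.77% of all genes (0.794% lower and 0.974% higher with GHSROS), and the smallest member p in limma was 0.129. The values bound the difference in probe-set signal as well, and whether bright signals compress differences was not tested. The 95% confidence interval lay inside a 1.5-fold change either way for 60 of 61 genes, beside 86% of all genes, and RPS24 was the exception. In RNA from whole cultures, fewer cells with a transcript and less of it per cell cannot be told apart.

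**Figure D1:**
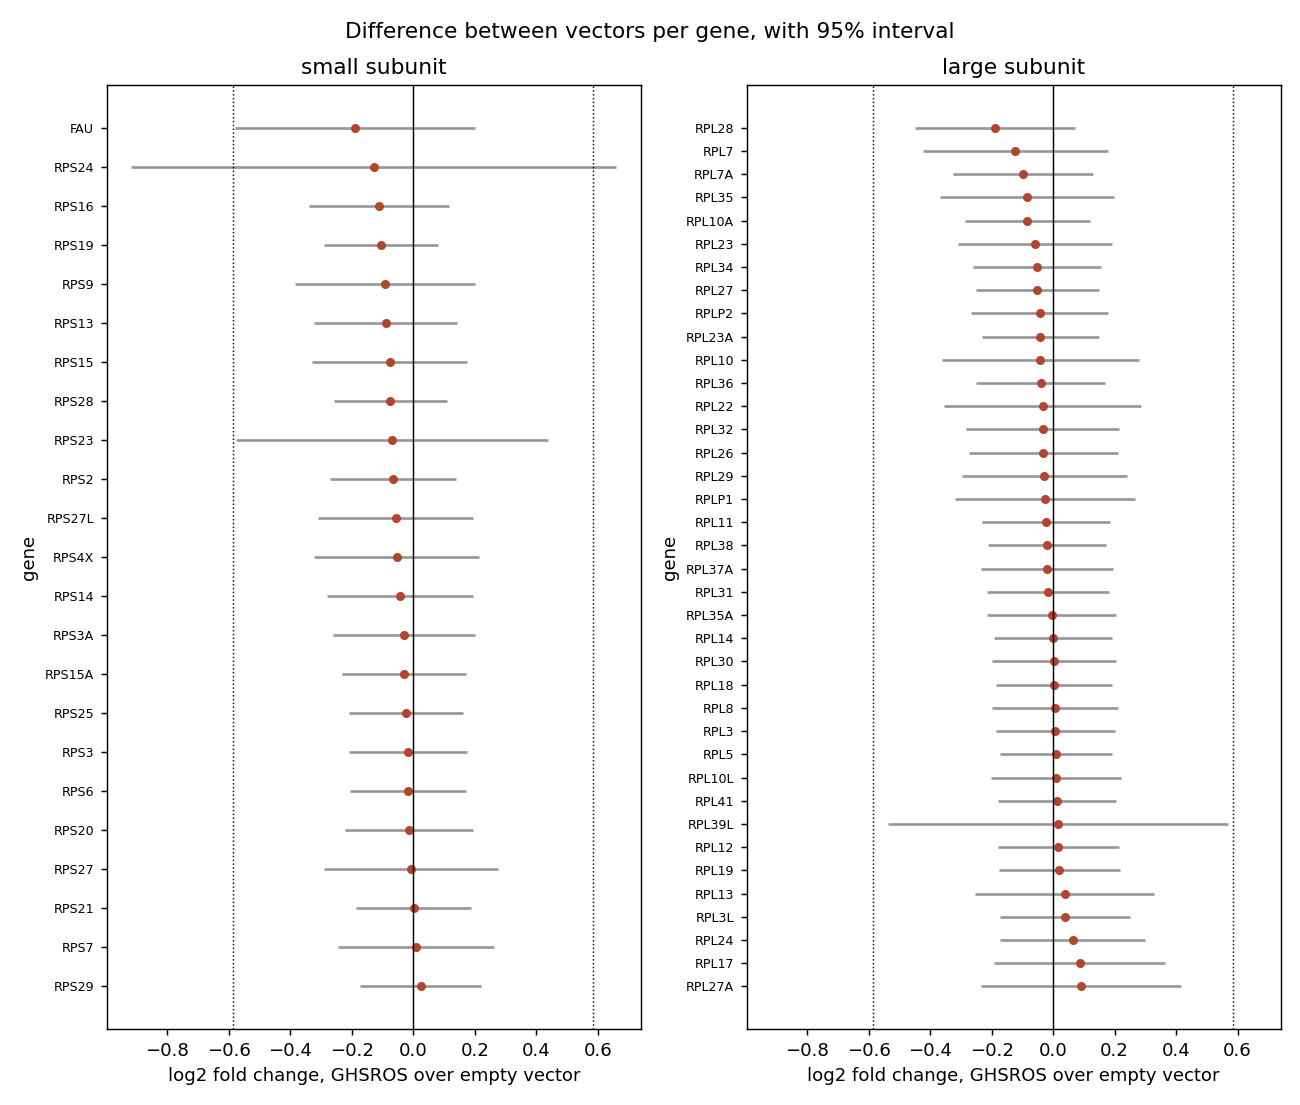
Log2 fold change of GHSROS over empty vector for each ribosomal protein gene (points, horizontal axis) with its 95% confidence interval from limma (bars), small-subunit genes on the left and large-subunit genes on the right, and dotted lines at 1.5-fold either way. All points lie between -0.19 and 0.09, and only the interval of RPS24 crosses the dotted lines.

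The signs leaned to lower values with GHSROS. The log2 fold change was below 0 for 43 of 61 genes (70.5%), beside 49.1% of all genes. Among genes with a mean at or above the median, it was below 0 for 41 of 57 members (71.9%), beside 55.8% of all such genes. Medians at that level were -0.029 for members and -0.012 for all genes. In the small subunit the log2 fold change was below 0 for 20 of 23 genes with a median of -0.054, and in the large subunit for 23 of 38 with a median of -0.019. The mean over the 61 genes was 11.65, 11.62 and 11.66 on the GHSROS arrays, against 11.67, 11.62 and 11.74 on the empty-vector arrays. The groups overlapped, and the empty-vector array numbered 3 was the highest of all. Without both arrays that stood apart the count was 46 of 61 and the median -0.036. Without empty-vector array 3 the count was 33 of 61 and the median -0.001, and after quantile normalization 35 of 61 and -0.008. The small-subunit median was -0.018 without empty-vector array 3, and -0.026 after quantile normalization, where 15 of 23 were below 0. All members were read on the same 6 arrays, so their signs are not independent observations.

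Small-subunit genes included the only members whose groups did not overlap. RPS19, a protein of the small-subunit head whose loss impairs maturation of 18S ribosomal RNA and which is the gene most often mutated in Diamond-Blackfan anaemia, stood at 12.82, 12.81 and 12.86 on the GHSROS arrays, against 12.98, 12.88 and 12.94 on the empty-vector arrays. Its log2 fold change was -0.11 (SE 0.08), or 1.08-fold, with an unadjusted limma p of 0.219. RPS28, which lies near the mRNA exit channel, stood at 13.82, 13.78 and 13.83 with GHSROS, against 13.89, 13.84 and 13.92 with the empty vector. Its log2 fold change was -0.075 (SE 0.08). All 3 GHSROS values of each gene lay under all 3 empty-vector values, by a narrow margin. That made 2 of 61 genes with the groups apart in the lower direction, beside 2.44% of all genes, and 0 of 61 in the higher direction, beside 3.06%. Of the 3 RPS28 probe sets, whose log2 fold changes ran from -0.075 to -0.064, 2 had the groups apart.

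Other small-subunit genes had wider intervals or smaller differences. RPS16, a head protein near the decoding centre, was at 12.21, 12.14 and 12.37 with GHSROS and 12.41, 12.27 and 12.38 with the empty vector, a log2 fold change of -0.11 (SE 0.10). Its groups overlapped through GHSROS array 3. FAU encodes a ubiquitin-like protein fused to eS30, which lines the mRNA entry channel, and it was at 11.29, 11.28 and 10.95 with GHSROS and 11.06, 11.60 and 11.43 with the empty vector. Its log2 fold change of -0.19 (SE 0.16) came with an interval from -0.58 to 0.20. It was -0.34 without empty-vector array 1, -0.079 without GHSROS array 3, -0.07 without empty-vector array 2 and -0.23 without both arrays that stood apart. The lowest FAU value in each group belonged to an array that stood apart. RPS13, a protein of the body of the subunit, differed by -0.09 (SE 0.10) on the log2 scale. RPS2, at the mRNA entry, differed by -0.065 (SE 0.09).

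Of the core decoding and signalling members, RPS6, RPS3 and RPS14 had log2 fold changes near 0. RPS2 and RPS23, listed with them, differed by -0.065 (SE 0.09) and -0.068 (SE 0.21). The RPS23 interval was wide, from -0.58 to 0.44. RPS6, the small-subunit protein phosphorylated downstream of mTOR, averaged 13.07 ± 0.06 with GHSROS and 13.09 ± 0.009 with the empty vector (SD, n = 3 each), and its interval ran from -0.21 to 0.17. RPS3, at the mRNA entry channel, had a log2 fold change of -0.017 (SE 0.08). RPS14, a platform protein whose loss underlies the anaemia of 5q- syndrome, had -0.044 (SE 0.10). Of the 10 measured genes among 14 listed as mutated in Diamond-Blackfan anaemia, 7 had a log2 fold change below 0 and the median was -0.027, beside 0.002 for all genes, with 0 past the adjusted test.

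In the large subunit RPL28 had the smallest p of all members. It encodes eL28, a protein of the large-subunit surface, and stood at 10.65, 10.64 and 10.92 with GHSROS, against 11.03, 10.87 and 10.88 with the empty vector. GHSROS arrays 1 and 2 were below every empty-vector array and GHSROS array 3 was above 2 of them. The log2 fold change was -0.19 (SE 0.11), or 1.14-fold, with an unadjusted limma p of 0.129 and an interval from -0.45 to 0.07. Without GHSROS array 3 it was -0.28, with an unadjusted limma p of 0.0329. Without both arrays that stood apart, the log2 fold change was -0.23 and the unadjusted limma p was 0.0739.

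RPL7A, RPL7 and RPL10A were the other large-subunit genes among the 10 lower members with the smallest p. RPL7A, which with RPL7 takes part in large-subunit assembly, was at 12.31, 12.15 and 12.31 with GHSROS and 12.27, 12.31 and 12.47 with the empty vector, a log2 fold change of -0.10 (SE 0.10), and -0.16 without both arrays that stood apart. RPL7 was at 12.35, 12.20 and 12.24 with GHSROS and 12.59, 12.15 and 12.41 with the empty vector. The log2 fold change of RPL7, -0.12 (SE 0.13), rested on empty-vector array 1, and was -0.019 without that array, -0.009 without both arrays and 0.003 with array weights. Its 3 probe sets, read on the same arrays, gave -0.13 to -0.11. RPL10A, part of the mobile L1 stalk, differed by -0.084 (SE 0.09). Groups overlapped in each.

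Members with log2 fold changes above 0 were mostly of the large subunit. RPL27A had the highest, 0.09 (SE 0.14), but its other probe set gave -0.10. RPL17, a protein at the tunnel exit, was at 8.01, 7.91 and 7.77 with GHSROS and 7.62, 7.87 and 7.95 with the empty vector (0.09, SE 0.12). RPL24, which forms a bridge between the subunits, had 0.064 (SE 0.10), and its other probe set gave 0.056. RPL13 (0.038, SE 0.12), RPL3L (0.039, SE 0.09), RPS29 (0.024, SE 0.08), RPL19 (0.020, SE 0.08), RPL12 (0.017, SE 0.08), RPL41 (0.013, SE 0.08) and RPL5 (0.010, SE 0.08) completed the 10 higher genes with the smallest p. The unadjusted limma p values of these 10 were all at least 0.486. Probe sets not kept gave log2 fold changes as low as -0.036 in RPL5, -0.079 in RPL12 and -0.086 in RPL41. Without both arrays that stood apart, RPL41 stood at -0.041 and RPL3L at -0.012, below 0.

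Functional centres of the large subunit had differences near 0. RPL5 and RPL11 bind 5S ribosomal RNA, and when ribosome assembly is disturbed this particle holds the ubiquitin ligase MDM2 and so stabilises p53. RPL5 was at 13.90, 13.85 and 13.91 with GHSROS and 13.90, 13.85 and 13.88 with the empty vector, and RPL11 differed by -0.022 (SE 0.09). RPL3, which reaches toward the peptidyl transferase centre, stood at 13.46, 13.34 and 13.44 with GHSROS and 13.38, 13.39 and 13.44 with the empty vector, and its interval ran from -0.19 to 0.20. RPLP1 and RPLP2 form the stalk that recruits translation factors, and RPL12 lies at its base. RPLP1 differed by -0.025 (SE 0.12) and RPLP2 by -0.044 (SE 0.09), or -0.105 without both arrays that stood apart.

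**Figure D2:**
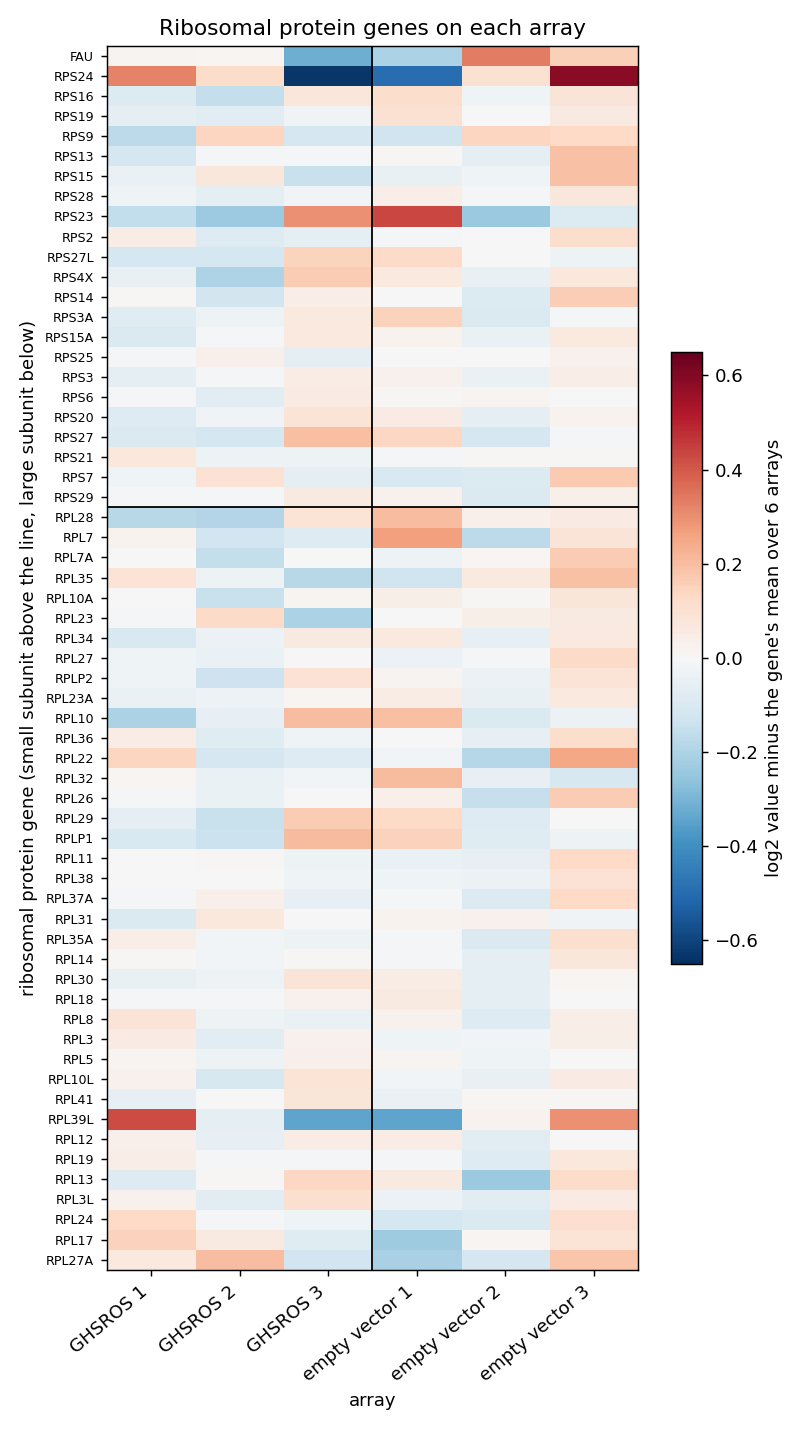
Log2 value of each ribosomal protein gene (rows) on each of the 6 arrays (columns, GHSROS left and empty vector right) minus that gene's mean over the arrays, with red above and blue below the mean, small-subunit genes above the line and large-subunit genes below, each ordered by log2 fold change. Most rows are pale, and RPS24, RPS23 and RPL39L carry the deepest colours, alike on GHSROS array 3 and empty-vector array 1.

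As a group these genes varied little from culture to culture. The SD of a gene over the 6 arrays had a median of 0.076 for the members, with quartiles of 0.056 and 0.126, against a median of 0.142 and quartiles of 0.099 and 0.21 for all genes. Signals of 37 of the 61 genes averaged 12 or more, on a scale whose highest value was 14.7, and whether such bright signals compress differences was not tested. Signals of different probe sets are not amounts of RNA and are not ranked here. RPL5 was the steadiest, with an SD of 0.027, followed by RPS25 (0.034), RPS21 (0.037), RPS6 (0.04) and RPL18 (0.04).

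**Figure D3:**
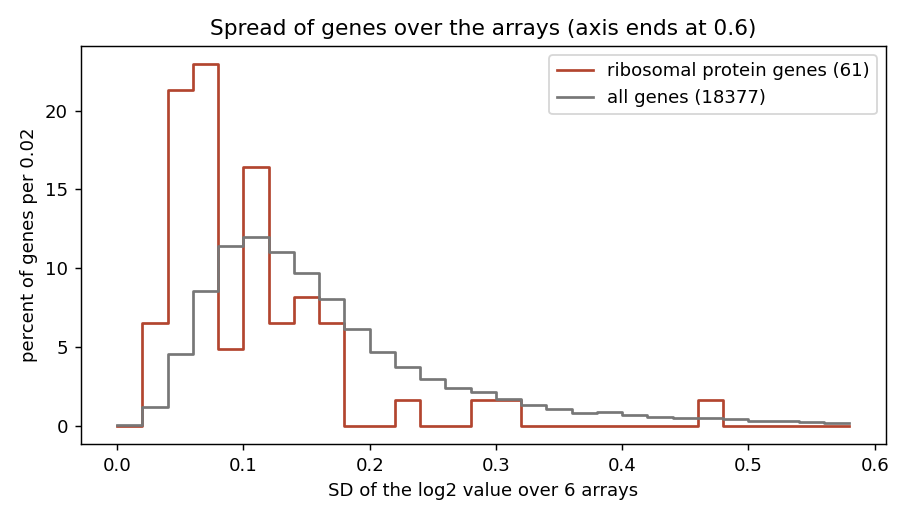
Percent of genes (vertical axis) by the SD of their log2 value over the 6 arrays (horizontal axis, in steps of 0.02), for the 61 ribosomal protein genes and all 18377 genes. The members lie to the left, with a median of 0.076 against 0.142.

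A few members varied far more than the rest, along the arrays and not along the vectors. RPS24, a small-subunit protein needed for pre-rRNA processing, was at 11.82, 11.62 and 10.87 with GHSROS and 11.0015, 11.60 and 12.09 with the empty vector. The low value of each group belonged to an array that stood apart, and the range over the 6 arrays was 1.22, the widest of the members. Its log2 fold change was -0.13 (SE 0.33) with all arrays and -0.13 without both of those arrays. With single arrays left out it ran from -0.41 without empty-vector array 1 to 0.155 without GHSROS array 3, and it was 0.134 without empty-vector array 3. RPS24 mRNA is known to be alternatively spliced at its 3′ end, and a single summary value cannot separate isoforms.

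RPS23, a protein of the decoding centre, moved the opposite way. It was at 11.34, 11.26 and 11.80 with GHSROS and 11.93, 11.25 and 11.41 with the empty vector, highest in each group on the array that stood apart. Its log2 fold change was -0.068 (SE 0.21), and -0.035 without both arrays. RPL39L, a close copy of the tunnel protein gene RPL39 known for testis expression and for its presence in some tumours, was at 9.38, 8.89 and 8.61 with GHSROS and 8.61, 8.97 and 9.25 with the empty vector. Like RPS24 and FAU it was lowest on GHSROS array 3 and empty-vector array 1. Its log2 fold change was 0.016 (SE 0.23).

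**Figure D4:**
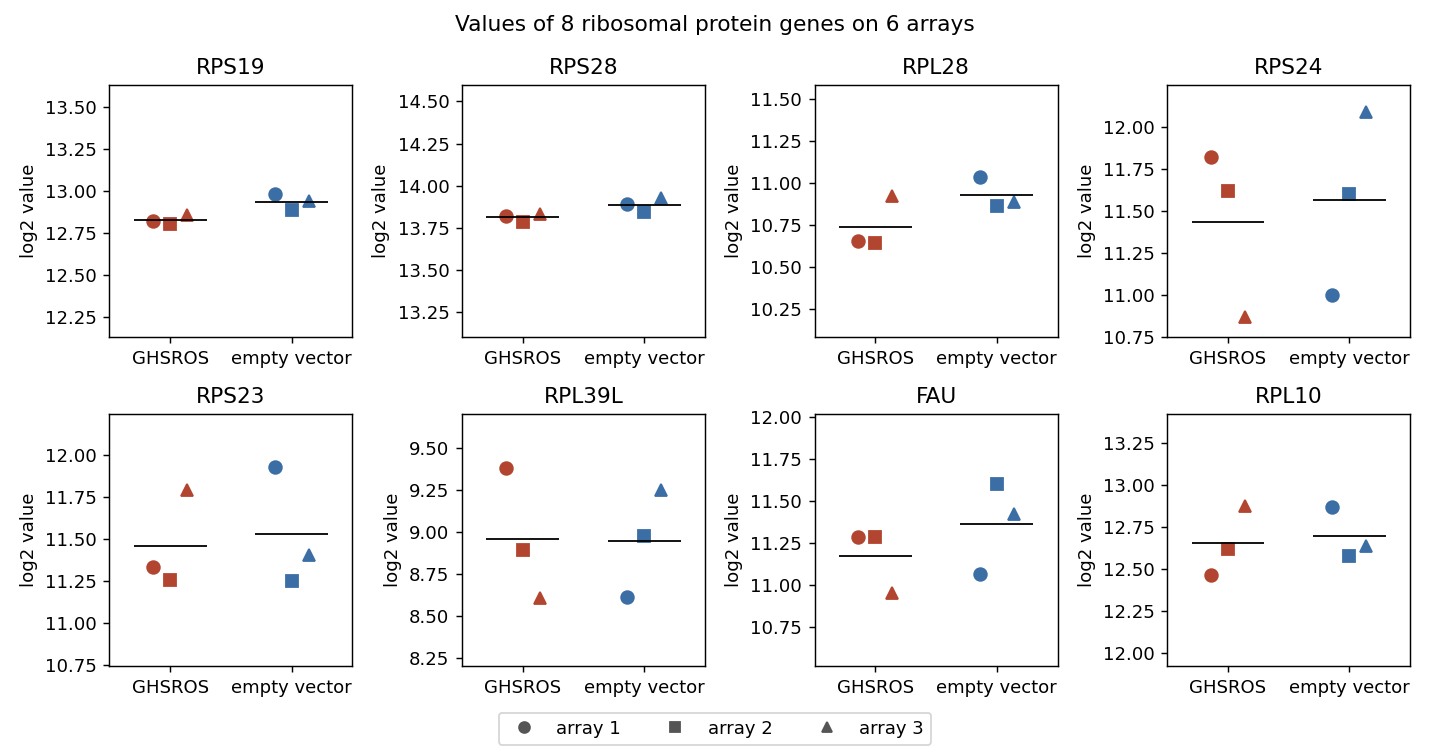
Log2 values (vertical axes, all spanning the same range) of 8 ribosomal protein genes on the 3 GHSROS arrays (red, left) and the 3 empty-vector arrays (blue, right), with array numbers as symbols and group means as lines. RPS19 and RPS28 have narrow groups that do not overlap, while RPS24, RPL39L and FAU are lowest, and RPS23 and RPL10 highest, on GHSROS array 3 and empty-vector array 1.

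Counted over all members, GHSROS array 3 and empty-vector array 1 held the 2 highest values of 12 genes (19.7%) and the 2 lowest values of 7 genes (11.5%). Among all genes these shares were 18.9% and 20.4%. The 12 were RPL10, RPL12, RPL18, RPL28, RPL29, RPL30, RPLP1, RPS3A, RPS20, RPS23, RPS27 and RPS27L. The 7 were FAU, RPL17, RPL27A, RPL35, RPL39L, RPS15 and RPS24. RPL10, the X-linked gene of a late-joining protein that the subunit needs to become active, was at 12.46, 12.62 and 12.87 with GHSROS and 12.87, 12.58 and 12.63 with the empty vector. The first principal component of the 61 genes, which held 62.8% of their variance, placed GHSROS array 3 at -1.03 and empty-vector array 1 at -0.98, and the other arrays between 0.32 and 0.69. Values were not scaled, so members with a wide spread weigh most in this component. RPS24 and RPL39L had SDs of 0.47 and 0.32 over the arrays, beside a median of 0.076 for the members. On this component the order of arrays was similar to that of all genes, with members moving in both directions along it.

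The list as a whole did not share that order. Members above their own mean numbered 26, 13 and 33 of 61 on GHSROS arrays 1, 2 and 3, and 33, 16 and 49 on empty-vector arrays 1, 2 and 3. Empty-vector array 3, with 80.3% of members above their mean, also had 59.4% of all genes above theirs. The mean deviation of the members from their own means ran from -0.042 to 0.081 over the arrays. Against this, the 30 mitosis genes ran from -0.631 to 0.388 and the ATF4 genes from -0.379 to 0.541.

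**Figure D5:**
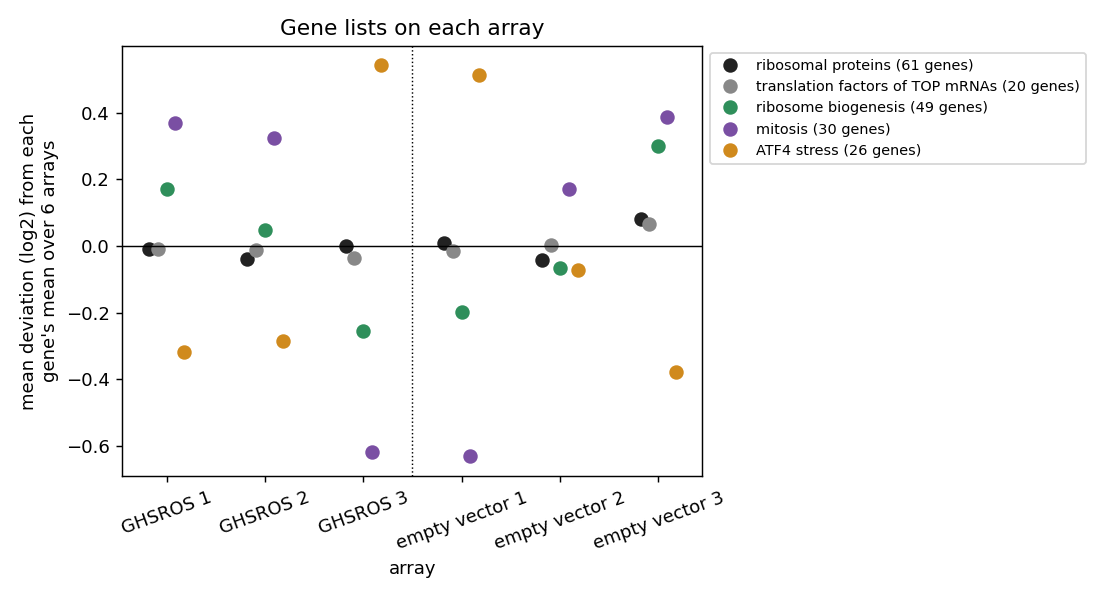
Mean deviation of 5 gene lists from each gene's own mean over the 6 arrays (vertical axis, log2), for the GHSROS arrays on the left and the empty-vector arrays on the right. Ribosomal protein genes stay between -0.042 and 0.081, while ribosome biogenesis, mitosis and ATF4 genes are displaced on GHSROS array 3 and empty-vector array 1.

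Genes that build ribosomes had a wider spread across arrays than the genes of the ribosome itself. Of 52 listed biogenesis factors, which make, process and assemble pre-rRNA, 49 were measured. Their mean was 10.61, 10.49 and 10.18 on the GHSROS arrays, against 10.24, 10.37 and 10.74 on the empty-vector arrays. Only 3 of 49 on GHSROS array 3 and 5 of 49 on empty-vector array 1 were above their own mean, against 49 of 49 on empty-vector array 3. Their median SD over the arrays was 0.258, against 0.076 for the ribosomal protein genes. Between the vectors 29 of 49 had a log2 fold change below 0, with a median of -0.016 and 0 past the adjusted test. The ends of the list were RRP12 at -0.24 (SE 0.18) and WDR12 at 0.10 (SE 0.17). MYC, which drives transcription of ribosomal genes, was at 11.90, 12.02 and 12.10 with GHSROS and 12.25, 12.12 and 12.11 with the empty vector (-0.15, SE 0.09), with the groups apart by under 0.01.

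Translation factors and other genes known for TOP mRNAs were counted beside the ribosomal proteins. Of 23 listed, 20 were measured. Their median log2 fold change was -0.029 and 14 of 20 were below 0, with 0 past the adjusted test, and their median SD over the arrays was 0.084. The list ended at VIM, the gene of vimentin, with -0.17 (SE 0.10), and at NACA, a chaperone subunit that binds nascent chains, with 0.038 (SE 0.08). Among the ribosomal proteins with the exact TOP start, 30 of 37 were below 0 with a median of -0.029. Among those with the run within 5 bases of the start only, 3 of 6 were below 0 with a median of -0.013. Among those without a run within 5 bases, 4 of 7 were below 0 with a median of -0.051. The differences between these groups were not tested.

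Paralogs inside the rule had log2 fold changes near 0. RPL3L, the striated muscle form of RPL3, was at 6.63, 6.53 and 6.71 with GHSROS and 6.57, 6.53 and 6.66 with the empty vector. RPL10L, a testis form of RPL10, was at 5.57, 5.43 and 5.63 with GHSROS and 5.52, 5.49 and 5.59 with the empty vector. Such values lie near or under the middle of the signals on an array, and whether these genes are expressed cannot be told from them. RPS27L, a p53-inducible copy of RPS27, was at 7.19, 7.19 and 7.45 with GHSROS and 7.43, 7.30 and 7.27 with the empty vector (-0.058, SE 0.11). RPS27 itself stood at 13.08, 13.06 and 13.37 with GHSROS and 13.30, 13.06 and 13.16 with the empty vector (-0.0065, SE 0.12). Of 4 paralogs outside the rule, RPL22L1 varied most, at 7.20, 7.20 and 6.57 with GHSROS and 6.73, 6.77 and 7.75 with the empty vector (-0.09, SE 0.31). RPL7L1 was at the other end, with 0.068 (SE 0.15).

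Ribosomal protein genes have many processed pseudogenes of nearly the same sequence, so a probe set can read RNA of more than 1 locus. Of the 61 genes, 17 had several probe sets, 44 in all. The means of the probe sets of a gene differed by more than 1 log2 unit in 10 of the 17. Signs of the log2 fold change differed within 8 genes, RPL5, RPL12, RPL14, RPL27A, RPL29, RPL34, RPL41 and RPS15. In RPL34 the brightest probe set averaged 13.17 with a log2 fold change of -0.051, and the other averaged 6.94 with 0.0063. In RPL41, whose protein is among the shortest known, 2 probe sets held identical values on all arrays, and the other gave -0.086 (SE 0.24) against their 0.013. The 27 probe sets not kept had a median log2 fold change of -0.036, with 19 below 0.

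Members on chromosome 19 were noticed after their values were seen. The 8 were RPL18, RPL28, RPL36, RPS9, RPS15, RPS16, RPS19 and RPS28, and 7 had a log2 fold change below 0, with a median of -0.085. All 1307 genes of chromosome 19 had a median of -0.038 with 829 (63.4%) below 0, beside 0.002 and 49.1% for all genes. The other 53 members had a median of -0.022 with 36 below 0. No chromosome 19 gene passed an adjusted p of 0.05 in limma. An unadjusted limma p under 0.05 was seen for 46 of the 1307, beside 325 of all 18377 genes (1.77%). Groups were apart in the lower direction for 80 of the 1307, RPS19 and RPS28 among them, beside 449 of all genes (2.44%). In the higher direction they were apart for 34 of the 1307, beside 563 of all genes (3.06%).

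Small nucleolar RNA (snoRNA) genes, which guide modification of ribosomal RNA, lay within 19 of the members by RefSeq position, 37 genes in all, strand not considered. Of the 18 with a probe set of their own, 17 had a log2 fold change below 0, with a median of -0.16, and 0 passed the adjusted test. Their 12 hosts were among the members described above, and the 19 members that hold a snoRNA gene had a median of -0.031, beside -0.027 for the other 42. The 157 measured snoRNA genes outside the members had 100 (63.7%) below 0 and a median of -0.038. SNORD58A, within RPL17, differed by -0.32 (SE 0.11) while RPL17 differed by 0.09 (SE 0.12). SNORD36B, within RPL7A, differed by -0.24 (SE 0.10) beside -0.10 (SE 0.10) for its host. These snoRNA genes were chosen after their values were seen, and the difference from their hosts was not tested.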

How the data were processed

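RNA of 6 cultures was measured on 1-colour Affymetrix arrays. Each deposited value is the log2 signal of a probe set. The submitters' processing notes name RMA, and the sources used here do not give its version, steps or filters. In its usual form RMA quantile normalizes the arrays, which removes a shift common to most genes. Of 28869 probe sets, 19310 had 1 symbol in the platform annotation, 1752 had several and stayed unnamed, and 7807 had none. The brightest probe set per gene left 18377 genes with no filter on level. Groups and replicate numbers came from sample titles. Arrays carry no read depth, and 3 arrays per group limit the precision.

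Groups were compared in limma 3.58.1 (R 4.3.3; lmFit, eBayes, group only, two-sided, Benjamini-Hochberg over all genes, threshold 0.05). No test was made over the list of members. Members and lists were chosen with earlier results of these data known. Genes named were the 10 lower and 10 higher members with the smallest p, members with set roles, paralogs, the 5 steadiest and 5 most variable members, those whose probe sets differ in sign, and the ends of other lists; snoRNA and chromosome 19 genes, MYC and the members listed by array order were added after their values were seen. Unless each sample was its own culture and transfection, p-values cover only the spread of these samples, which may be technical. Alternatives were quantile normalization, centring on medians, a block for the replicate number, level filters, other uses of probe sets, array weights, a robust prior with a trend, and omission of arrays. RefSeq names and sequences are of GRCh38.p14.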

Additional observations from a re-analysis of the deposited data

How the results depend on the processing

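Under each of 16 alternatives 0 members and 0 genes passed an adjusted p of 0.05 in limma. The median of the members stayed below 0 in all, from -0.068 (without empty-vector array 2) to -0.001 (without empty-vector array 3), moving by less than 0.046, the SD of the list's mean within groups. The large-subunit median turned to 0.014 with array weights, 0.016 when empty-vector array 3 was left out and 0.009 when GHSROS array 2 was. Members below 0 numbered 35 after quantile normalization (57.4%, beside 46.3% of all genes), 51 after median centring (83.6% beside 54.2%) and 32 with array weights (52.5% beside 45.6%), and 33 to 53 with single arrays left out. Members with an unadjusted p under 0.05 numbered 1, RPL28, with array weights, where 877 of 18377 genes did, and 0 to 1 with single arrays left out, the 1 being RPL28 without GHSROS array 3, where 453 genes did. Groups apart were seen for 3 members after quantile normalization (RPS3 joined, higher with GHSROS), beside 5.78% of all genes. After median centring there were 4 (RPL10A and RPL28 joined), beside 5.7%. With single arrays left out there were 4 to 9, where 10.4% to 17.2% of all genes are apart. RPS19 and RPS28 stayed apart after quantile normalization and median centring, and RPS28 also with its probe sets averaged. The other alternatives could not make them overlap, because they left the values unchanged or only removed arrays. Without both empty-vector array 1 and GHSROS array 3, an omission chosen after seeing the data, 14 were apart, beside 25.3% of all genes. Signs turned for 8 of 41 named members after quantile normalization, 5 after centring and 4 to 10 with single arrays left out. Same-numbered arrays did not all deviate together (correlations across genes of -0.714, 0.504 and -0.669). Some differently numbered arrays did, at 0.831 for GHSROS array 3 with empty-vector array 1. GHSROS array 1 with empty-vector array 3 gave 0.738. Deviations were taken from group means, so an array that stood apart also shifts the deviations of the others in its group. These correlations therefore cannot decide whether the replicate numbers paired the arrays. With the replicate block the median was -0.029, 43 members were below 0 and unadjusted calls over all genes were 223, against 325. The causes of these changes were not tested. The small-subunit median ran from -0.074 to -0.018 with single arrays left out.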
